A study of Saccharomyces cerevisiae with 13 samples.

Results

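The amino acid permeases described here are 10 genes taken by name, *AGP1*, *GNP1*, *BAP2*, *BAP3*, *TAT1*, *TAT2*, *MUP1*, *MUP3*, *CAN1* and *LYP1*, out of 7126 named genes in the deposited count lists. All 10 were found, and all 10 had enough counts to be tested in every comparison. The data are QuantSeq counts, in which reads from the 3′ end of each polyadenylated RNA are counted on its gene, in 13 libraries of budding yeast. Every strain derives from BY4741, a MATa laboratory haploid which the study's genotype gives as deleted for *HIS3*, *LEU2*, *LYS2* and *URA3*. The *yap1* mutant carried the empty vector pRS426ADH (3 libraries) and lacks Yap1, the transcription factor of the oxidative stress response. The Yap1 overexpression strain was WT carrying pRS426ADH-YAP1, in which the *ADH1* promoter drives *YAP1*, listed by the study with a TAP tag (3 libraries), and WT carrying the empty pRS426ADH was the control of both (3 libraries). WT without plasmid was treated with 50 mM caffeine for 1 h or left untreated (2 libraries each). The label of the second caffeine library reads 51 mM, and it was kept in the same group. The labels name no caffeine for the plasmid strains and give the medium of no library, and no source says whether replicates were separate cultures, so p-values measure only the spread between libraries.

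Amino acid permeases are membrane proteins that carry amino acids from the medium into the cell together with protons. In yeast, extracellular amino acids are sensed by the SPS complex at the plasma membrane (Ssy1, Ptr3 and Ssy5), which releases the transcription factors Stp1 and Stp2 to induce several permease genes. Nitrogen supply acts through GATA factors, amino acid starvation acts through Gcn4, and permeases already at the membrane are removed by the ubiquitin ligase Rsp5 with arrestin-like adaptors. Among the 10 genes, *AGP1* and *GNP1* encode permeases with many substrates, *BAP2* and *BAP3* carry branched-chain amino acids, and *TAT1* and *TAT2* carry aromatic amino acids, with valine among the substrates of Tat1. *MUP1* and *MUP3* encode the high- and the low-affinity methionine permease, and *CAN1* and *LYP1* encode the arginine and the lysine permease.

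Total counts per library ranged from 15508616 to 25609092, and the permeases together had 13116 to 25220 of them. The share of ribosomal RNA genes was 43.8% to 75% of all counts with plasmid and 14.7% to 27.4% without. *YAP1* had 2 to 22 counts in libraries of the *yap1* mutant and 23285 to 25251 with overexpression, against 635 to 722 in WT with vector. *URA3*, the marker of the plasmid, had 44722 to 146805 counts where a plasmid was present and 0 in the 4 libraries without one. *LEU2* and *MET17*, the gene of homocysteine synthase, had 0 counts in all 13 libraries, and a count of 0 allows up to 3 counts, or 0.117 to 0.193 CPM (counts scaled to a library total of 1000000). *LYS2* had 312 to 897 counts and *HIS3* had 744 to 1974, so *LYS2* went against the listed genotype, and *MET17* is not on that list. The *HIS3* counts are no check of a partial deletion. Of the mating-type markers, *MFA1*, *MFA2* and *STE2* had 352 to 31591 counts, and *MF(ALPHA)1*, *MF(ALPHA)2* and *STE3* had 2 to 186. Replicate 2 of WT with vector stood apart, with 352 *MFA1* counts against 3470 and 4068 in the other 2 libraries of its group, and results that turn on it are given without it.

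To show where letters known from these regulators stand, 500 bp upstream of each start codon were searched on both strands in the R64 assembly of RefSeq. The core bound by Stp1 and Stp2 was searched as CGGC and the motif of the GATA factors as GATAAG. The Gcn4 motif was searched as TGACTC and the Cbf1 motif as CACGTG. The Yap1 motif was searched as TTACTAA, with TGACTAA counted as well, and no motif contains another. Overlapping matches on opposite strands were each counted. CGGC was found at least once upstream of all 10 permease genes and of 68.9% of all 6006 genes, and at least 3 times upstream of 7 of the 10 and of 18.0% of all. GATAAG stood upstream of 3 of the 10 (22.8% of all genes), and at least 2 copies stood upstream of *AGP1* and *CAN1* alone among them (3.63% of all). TGACTC was found for 5 of the 10, *AGP1*, *BAP2*, *MUP1*, *MUP3* and *CAN1* (12.7% of all). CACGTG was found for *MUP3* alone (6.23% of all), and a Yap1 motif for *BAP3* alone (17.1% of all). A match is a description of letters and not a site. Within 250 bp the CGGC core was found for 3 of the 10 (40.7% of all genes), since most matches of these genes lie further upstream, as the map of motif matches shows.

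The stretches below, 5′ to 3′ on the strand of the gene, belong to the 6 genes that changed with caffeine, and capitals mark the Stp core, the GATA motif and the Gcn4 motif on either strand. Each stretch holds the most such matches that fit into 220 bp, with 5 bases on each side. Where stretches tied, the one farthest upstream was taken. This was so for *BAP2* and *MUP1*, whose Gcn4 matches lie outside the printed stretch, nearer the start codon. The first 3 genes rose and the last 3 fell. The *AGP1* stretch is chrIII:78134-78361 (minus strand), 442 to 215 bp upstream of the start codon. The *BAP2* stretch is chrII:376061-376187 (minus), 497 to 371 bp upstream, and the *CAN1* stretch is chrV:33723-33825 (minus), 359 to 257 bp upstream. The *MUP1* stretch is chrVII:598918-599110 (plus), 499 to 307 bp upstream. The *TAT1* stretch is chrII:378816-378906 (minus), 473 to 383 bp upstream, and the *TAT2* stretch is chrXV:285689-285791 (plus), 483 to 381 bp upstream.
AGP1: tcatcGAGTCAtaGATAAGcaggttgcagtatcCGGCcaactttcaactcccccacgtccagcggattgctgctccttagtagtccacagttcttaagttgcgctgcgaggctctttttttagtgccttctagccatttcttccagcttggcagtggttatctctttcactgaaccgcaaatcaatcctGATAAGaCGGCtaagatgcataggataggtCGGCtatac
BAP2: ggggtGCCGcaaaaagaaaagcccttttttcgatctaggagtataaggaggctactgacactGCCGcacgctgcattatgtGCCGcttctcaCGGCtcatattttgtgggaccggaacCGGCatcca
CAN1: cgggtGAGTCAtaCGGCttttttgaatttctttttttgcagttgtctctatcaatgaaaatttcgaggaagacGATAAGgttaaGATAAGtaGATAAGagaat
MUP1: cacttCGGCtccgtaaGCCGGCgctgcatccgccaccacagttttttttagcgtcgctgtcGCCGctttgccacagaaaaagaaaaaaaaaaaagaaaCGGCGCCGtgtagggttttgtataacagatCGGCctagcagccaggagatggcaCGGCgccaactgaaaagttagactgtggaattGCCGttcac
TAT1: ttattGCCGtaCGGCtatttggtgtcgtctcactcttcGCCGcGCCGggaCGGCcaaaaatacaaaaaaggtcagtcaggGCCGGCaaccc
TAT2: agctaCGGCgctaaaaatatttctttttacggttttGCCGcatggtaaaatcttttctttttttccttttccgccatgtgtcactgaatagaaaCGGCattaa

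**Figure D1:**
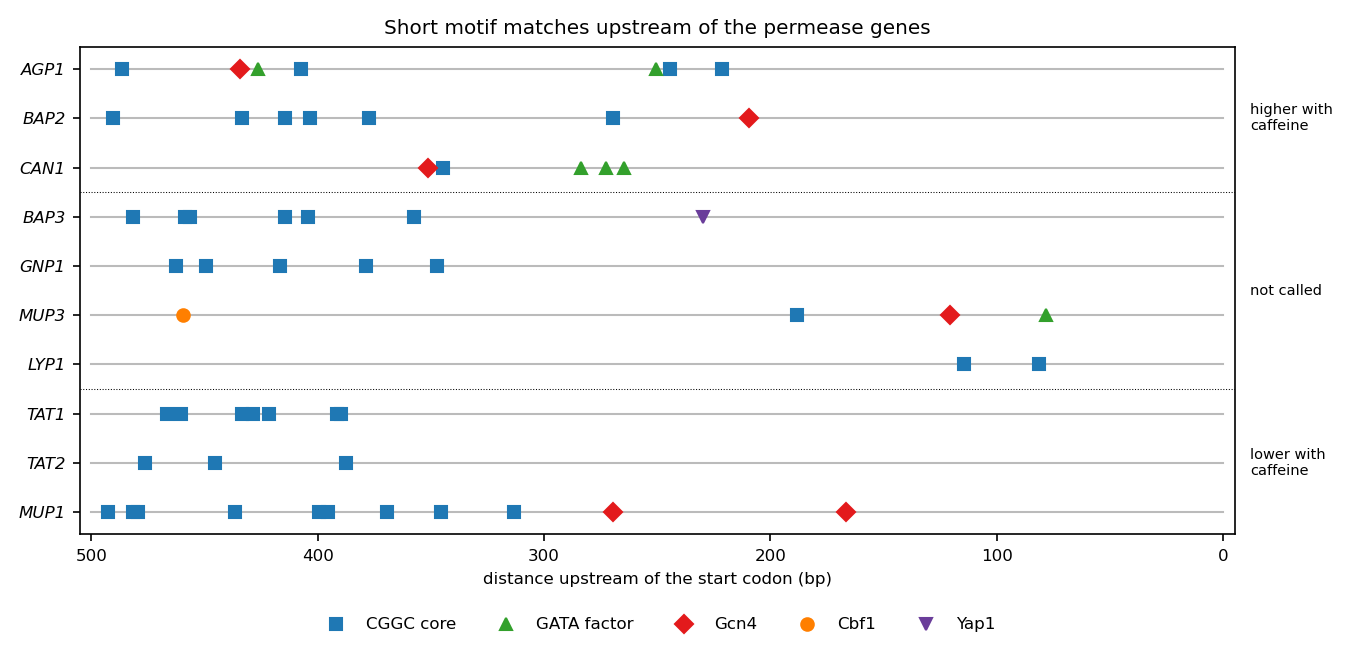
Matches of 5 short motifs (colours) in the 500 bp upstream of each permease gene, with distance from the start codon in bp on the horizontal axis and 1 row per gene. MUP1 has the most CGGC matches (9) and CAN1 has 3 GATAAG matches, and both genes that rose and genes that fell with caffeine carry CGGC.

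Genes on both sides of the caffeine response carried the CGGC core. *MUP1* had 9 matches, *TAT1* had 7 and *TAT2* had 3, against 6 for *BAP2*, 4 for *AGP1* and 1 for *CAN1*. GATAAG occurred upstream of *AGP1* (2 matches) and *CAN1* (3 matches) but not of *BAP2* among the genes that rose. It was upstream of none of the 3 that fell, but also of *MUP3* (1 match), which did not pass the test. Of all genes, 22.8% had a match, and within 250 bp *AGP1* and *CAN1* had none. Whether these letters bear on the direction of change was not tested.

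Caffeine treatment was compared with no treatment to ask how the drug changes WT transcripts. After 1 h, 3 of the 10 permease genes had risen (*AGP1*, *BAP2* and *CAN1*), 3 had fallen (*MUP1*, *TAT1* and *TAT2*), and 4 did not pass the test (*LYP1*, *MUP3*, *BAP3* and *GNP1*). Among all 6759 genes tested, 22.2% rose and 23.6% fell by the same rule, an adjusted p under 0.05 in the quasi-likelihood test of edgeR. The median log2 fold change of the permeases was -0.49, against 0.00 over all genes. The groups did not overlap for 9 of the 10, against 75% of all genes. Levels below are CPM, normalized over all 13 libraries, and the fold changes come from the fit of the 4 libraries compared, so that ratios of the printed levels can differ from them. The libraries were made from whole cultures, so a change in every cell and a change in part of the cells cannot be told apart.

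*AGP1* (YCL025C, chromosome III, 76018 to 77919, minus strand of R64) had 372 and 315 CPM in caffeine-treated WT, against 50.7 and 55.3 CPM in untreated WT. Both treated libraries lay far above both untreated ones. The log2 fold change was 2.62 ± 0.26 (SE, n = 2 each, edgeR adjusted p = 0.000976), a 6.14-fold rise that was larger than that of 95.9% of genes tested. *GNP1* (YDR508C, chromosome IV, 1466453 to 1468444, minus), which shares a longer sequence run with *AGP1* than any other of the 10, had 134 and 98.9 CPM with caffeine, against 223 and 142 CPM without. The treated libraries were the lower ones, but the 2 untreated libraries lay far apart, and the change of -0.73 ± 0.32 did not pass the test (adjusted p = 0.115). It ran from -0.99 without caffeine replicate 1 to -0.32 without untreated replicate 1.

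Among the branched-chain permeases, *BAP2* (YBR068C, chromosome II, 373861 to 375690, minus) had 101 and 85.2 CPM with caffeine, against 29.9 and 30.8 CPM without. Its groups were well apart, with a log2 fold change of 1.54 ± 0.22 (edgeR adjusted p = 0.00276). *BAP3* (YDR046C, chromosome IV, 548762 to 550576, minus) had 85.9 and 27.1 CPM with caffeine, against 75.3 and 89.7 CPM without. The 2 treated libraries disagreed, one lying among the untreated ones and the other far below. The *BAP3* estimate of -0.61 had a 95% interval from -1.90 to 0.68, and it depended on a single library, being -1.70 (edgeR adjusted p = 0.0117) without caffeine replicate 1 and 0.00 without caffeine replicate 2.

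*TAT1* (YBR069C, chromosome II, 376574 to 378433, minus) had 15.4 and 6.80 CPM with caffeine, against 61.1 and 67.4 CPM without. It fell by 2.60 ± 0.42 on the log2 scale (edgeR adjusted p = 0.00453). *TAT1* and *BAP2* are neighbours on 1 strand, 883 bp apart, and changed in opposite directions. The reference places an antisense RNA, *TBRT* (chromosome II, 376610 to 378633, plus strand), over 1824 bp of *TAT1*, and notes that its transcription represses *BAP2* and *TAT1*. *TBRT* has no row of its own in the count lists, and the counting is not stated to use strand, so reads of *TAT1* and *TBRT* cannot be told apart and the *TAT1* values are uncertain to that degree. *TAT2* (YOL020W, chromosome XV, 286172 to 287950, plus), which no annotated gene overlaps, had 13.8 and 7.78 CPM with caffeine, against 41.0 and 42.2 CPM without. Its treated libraries were likewise below both untreated ones, and it fell by 2.02 ± 0.32 (adjusted p = 0.0041).

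The methionine permeases differed in their values. *MUP1* (YGR055W, chromosome VII, 599417 to 601141, plus) had 8.38 and 6.32 CPM in caffeine-treated WT, against 84.9 and 85.2 CPM in untreated WT. Both treated libraries were far below the untreated ones, and the spread within each group was small. *MUP1* fell by 3.61 ± 0.25 on the log2 scale (edgeR adjusted p = 0.000867), to 0.082 times the untreated level, and 0.429% of genes tested had a lower fold change. *MUP3* (YHL036W, chromosome VIII, 26241 to 27881, plus) had 15.7 and 16.1 CPM with caffeine, against 20.1 and 18.5 CPM without. The *MUP3* groups did not overlap, but the change of -0.36 (95% interval -0.84 to 0.13) did not pass the test and was 0.02 where libraries were scaled by total counts alone. Strains lacking *MET17*, which was at 0 counts in all these libraries, depend on methionine from the medium. That count was the same with and without caffeine, and its bearing on the *MUP1* values was not tested.

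Of the genes for basic amino acids, *CAN1* (YEL063C, chromosome V, 31694 to 33466, minus) was the weakest expressed, with 7.21 and 10.5 CPM with caffeine, against 1.40 and 1.95 CPM without. These levels rest on 198 and 280 counts, against 31 and 48 counts. Even so the groups were well apart, and *CAN1* rose by 2.32 ± 0.36 on the log2 scale (edgeR adjusted p = 0.00376). *LYP1* (YNL268W, chromosome XIV, 138550 to 140385, plus) had 166 and 104 CPM with caffeine, against 93.2 and 81.0 CPM without. Both treated libraries were the higher ones, but they differed widely from each other, and the change of 0.56 ± 0.30 did not pass the test (adjusted p = 0.18). It was 0.15 without caffeine replicate 1 and 0.87 without caffeine replicate 2, and it passed at 0.92 where libraries were scaled by total counts alone.

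**Figure D2:**
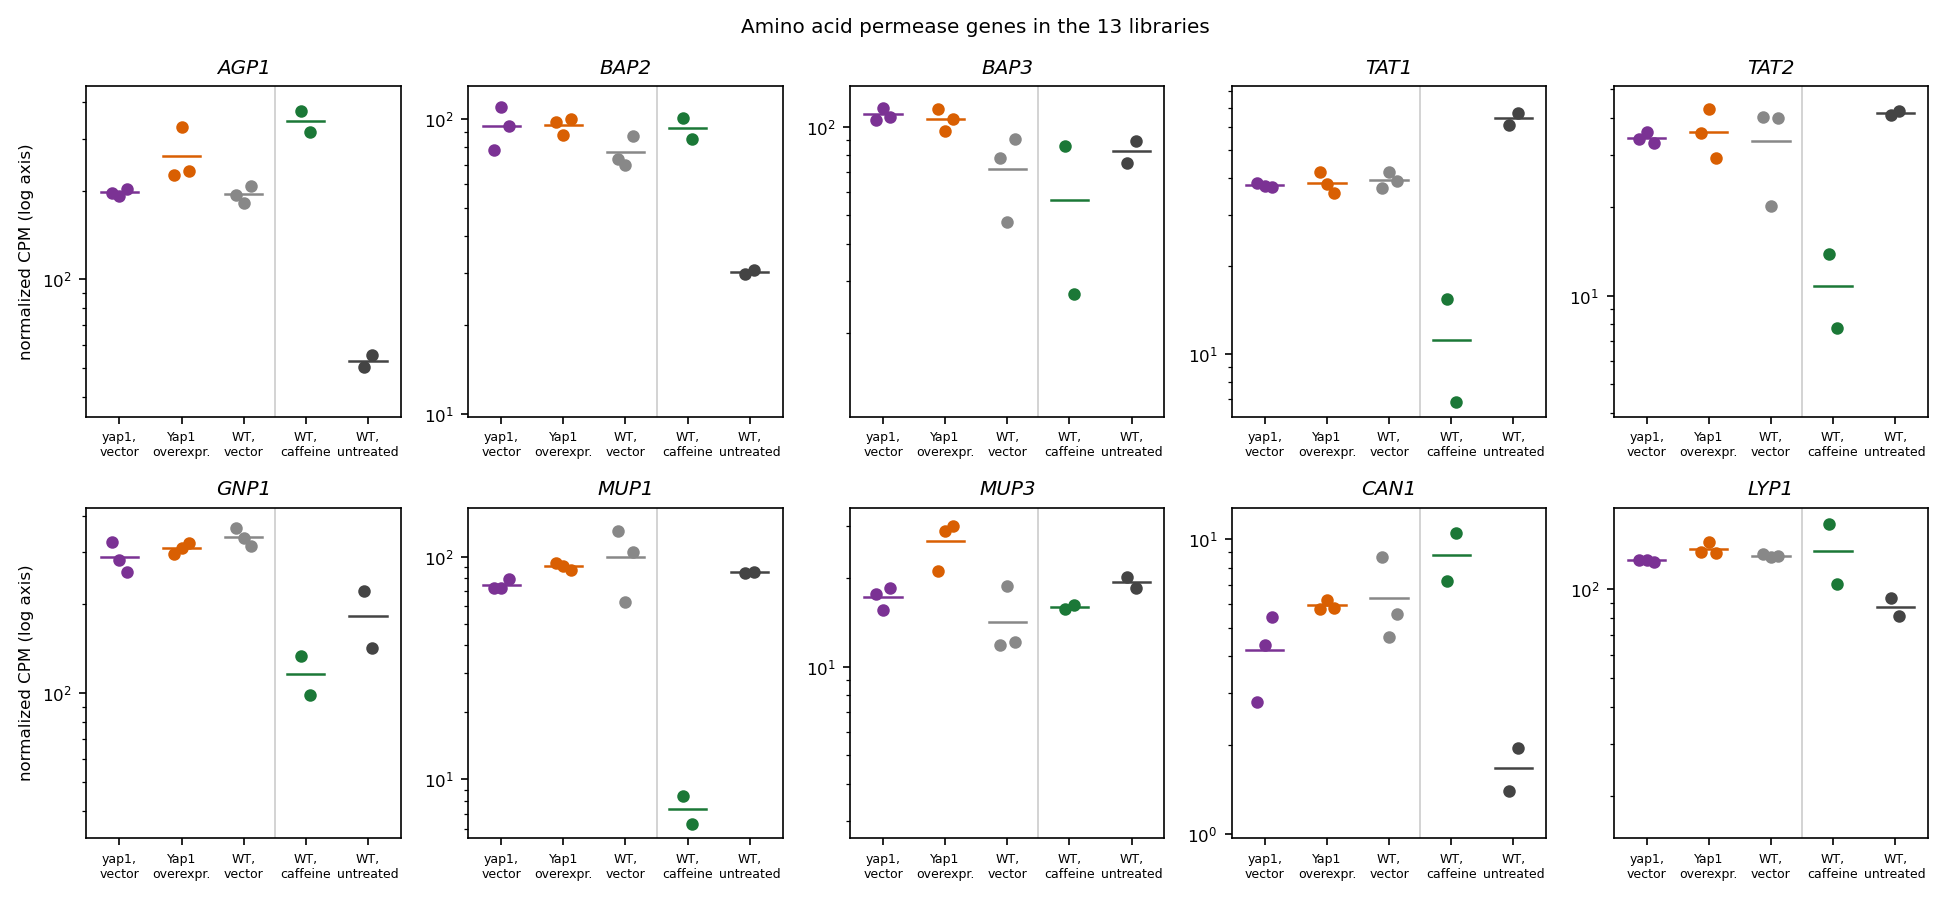
Normalized CPM of each permease gene (log axis, 1 panel per gene) in the 13 libraries, with a point per library and a bar at the mean of each of the 5 groups. AGP1 lies at 315 and 372 CPM with caffeine against 50.7 and 55.3 without, MUP1 at 6.32 and 8.38 against 84.9 and 85.2, and the yap1 mutant, overexpression and WT with vector differ far less than that.

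The summed level of the 10 permeases was 919 and 677 CPM in caffeine-treated WT, against 681 and 614 CPM in untreated WT. These ranges overlap on the scale normalized over 13 libraries. As a share of raw counts outside ribosomal RNA genes the sum was 0.202% and 0.151% with caffeine, against 0.107% and 0.102% without, and those do not overlap. Such shares are not normalized, and the shift of all genes on that scale was not computed. Whether the rise in share is particular to permeases was therefore not tested. Scaling by total counts alone, which include ribosomal RNA genes, moved the median log2 fold change of all genes by 0.37. *AGP1* made up 39.9% and 45.9% of the sum with caffeine, against 7.30% and 8.74% without, when each gene's CPM was divided by its coding length. The *GNP1* share on this scale was 13.7% and 13.8% with caffeine, against 30.6% and 21.4% without. In mean CPM per kb, *AGP1* ranked first of the 10 with caffeine (180) and sixth without (27.9), and *MUP1* ranked last with caffeine (4.26) and next to the top without (49.3). QuantSeq counts a region near the 3′ end of each RNA, so division by coding length can itself shift the order, and levels per length between genes are approximate. Without the division, *LYP1* (87.1 CPM) stood above *MUP1* (85.1 CPM) in untreated WT. The *AGP1* share was then 40.5% and 46.5% with caffeine, against 7.45% and 9% without.

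The 6 calls held under every alternative, with each library left out and under other scalings, filters and DESeq2. Where libraries were scaled by total counts alone, the median of all genes moved by 0.37 and calls over all genes were 2181 higher and 1086 lower, in place of 1501 and 1593.

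Related genes were counted from lists of the same pathway, to be read beside the 22.2% of all genes that rose and the 23.6% that fell. Of 9 other plasma membrane permeases tested, 5 rose with caffeine and 0 fell, with a median log2 fold change of 1.11. *DIP5*, the permease of glutamate and aspartate, rose by 3.52 ± 0.25 (edgeR adjusted p = 0.000867) and *GAP1*, the general amino acid permease, by 1.56 ± 0.23 (adjusted p = 0.00329). The other 3, *AGP2*, *ALP1* and *PUT4*, had fewer than 10 CPM and were named after their values were seen. Of 13 genes of amino acid sensing, 5 rose and 0 fell (median 0.60). The 5 include *PTR2*, a peptide transporter that the sensor induces, which was named after its values were seen. Also among the 5 were *STP2* (2.58 ± 0.27, edgeR adjusted p = 0.00116) and *SSY1*, the sensor (1.92 ± 0.34, adjusted p = 0.00584). *ASI3*, which helps to keep unprocessed Stp1 and Stp2 from acting, rose as well (2.27 ± 0.22, adjusted p = 0.000976). The genes that rose include an activator, a sensor and an inhibitor of the same pathway.

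Of 13 genes of permease traffic, 6 rose and 1 fell (median 1.03). *CSR2* and *ROG3*, which encode arrestin-like adaptors of Rsp5, rose by 3.32 ± 0.22 (edgeR adjusted p = 0.000867) and 3.01 ± 0.37 (adjusted p = 0.00184). *NPR1*, a kinase that stabilises Gap1 and promotes the turnover of Tat2, rose by 2.10 ± 0.22 (adjusted p = 0.00116). *SHR3*, whose product packages amino acid permeases for export from the endoplasmic reticulum, was the gene that fell (-1.14 ± 0.23, adjusted p = 0.0103). Of 7 genes of eisosomes, the membrane domains in which Can1, Mup1 and other permeases gather, 3 rose and 1 fell (median 0.74). *PUN1* rose by 3.85 ± 0.30 and *NCE102* by 1.07 ± 0.26, while *SUR7* changed by -0.98 ± 0.21 (adjusted p = 0.0115). Of 12 vacuolar amino acid transporters tested, 2 rose, *RTC2* (2.73 ± 0.28) and *AVT4* (1.49 ± 0.35), and 1 fell, *YPQ1* (-2.17 ± 0.26, adjusted p = 0.00169), with a median of 0.52. Of all genes tested, 22.2% rose and 23.6% fell, and counts in lists this small were not tested against those shares. The medians of these lists were above that of all genes, 0.00, and above that of the 10 permeases. *MFA1*, *MFA2* and *STE2*, the mating-type markers, also fell with caffeine, by 1.78, 2.47 and 1.61.

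**Figure D3:**
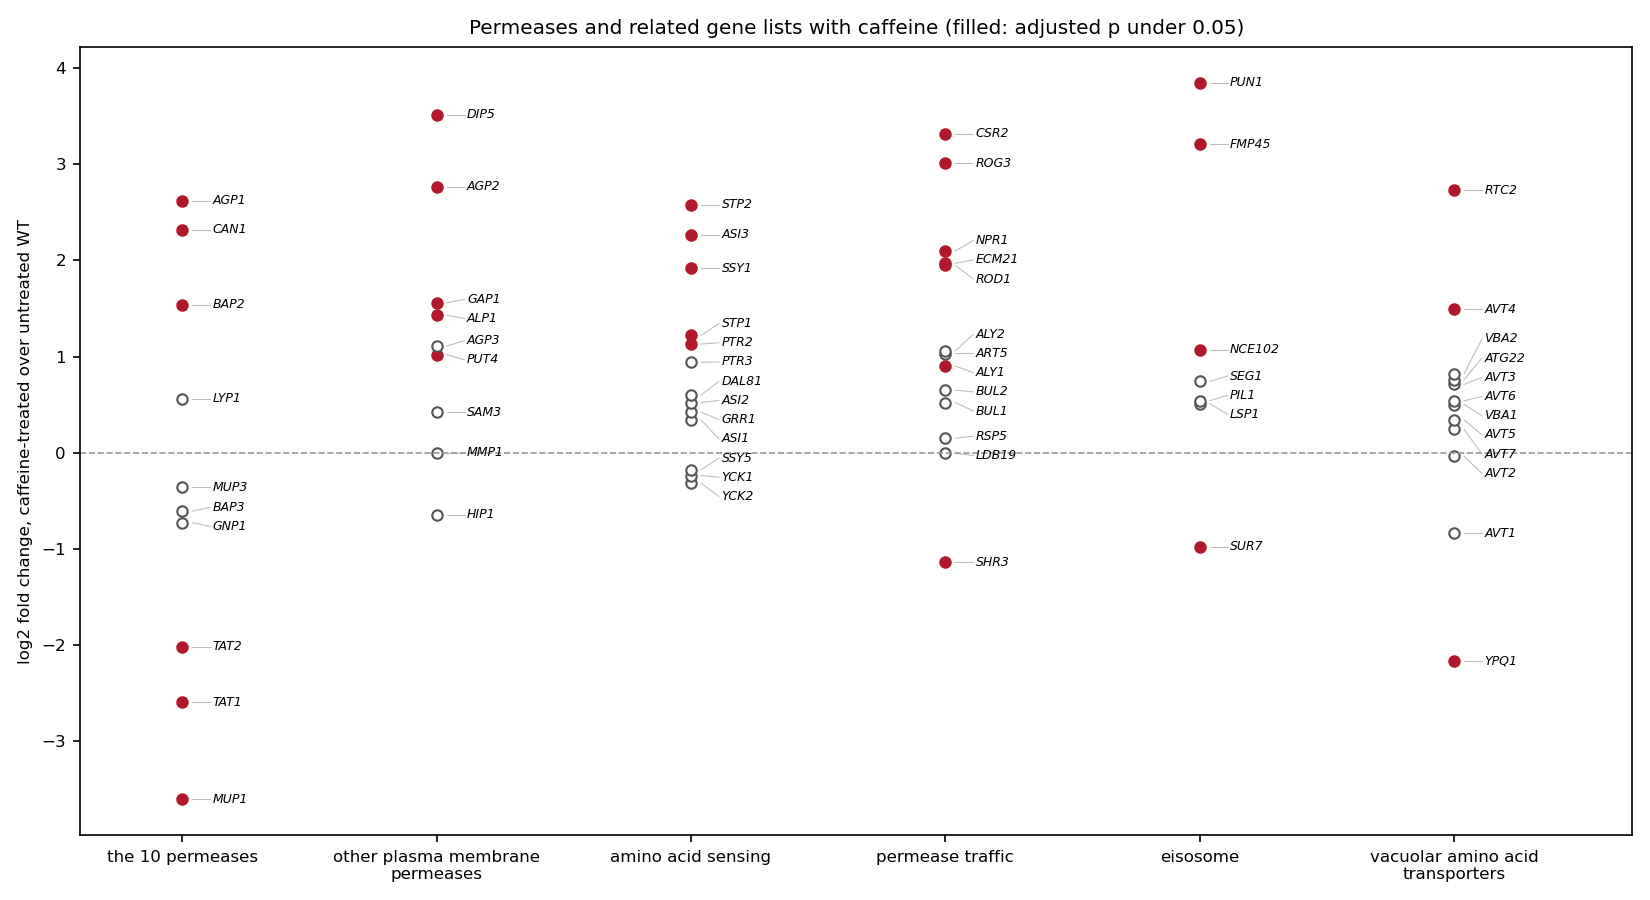
Log2 fold change of caffeine-treated over untreated WT (vertical axis) for each gene of the 10 permeases and 5 related lists, with filled points where the adjusted p was under 0.05. The permeases run from -3.61 to 2.62 with a median of -0.49, and the medians of the other lists lie between 0.52 and 1.11.

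The *yap1* mutant was compared with WT, both with the vector, to ask which transcripts need Yap1. In this comparison 0 of the 10 permeases passed the test of edgeR, 1 had an unadjusted p under 0.05, and DESeq2 called 0. Over all 6781 genes tested, edgeR called 0.0737% and 690 had an unadjusted p under 0.05, while DESeq2 called 131 genes. The groups did not overlap for *BAP3*, which was higher in the mutant (7.37% of all genes were higher without overlap), and for *LYP1*, which was lower (8.04% of all genes). *BAP3* had 105, 116 and 108 CPM in the *yap1* mutant, against 78.1, 47.6 and 90.6 CPM in WT with vector. All 3 mutant libraries were above the WT libraries, of which replicate 2 was the lowest, and the change was 0.60 (95% interval 0.15 to 1.06, edgeR adjusted p = 0.324), or 0.39 without WT replicate 2. *MUP1* had 72.4, 72.3 and 79.0 CPM in the mutant, against 130, 62.7 and 105 CPM in WT with vector, where replicate 2 again stood apart. Its change was -0.41 (adjusted p = 0.54), and without WT replicate 2 it was -0.64 and passed the test (adjusted p = 0.0157, against 0.0157 to 0.823 over the 6 fits with a library left out). The other 8 genes had changes from -0.58 (*CAN1*) to 0.29 (*BAP2*), with *MUP3* at 0.27, or 0.54 without WT replicate 2. The 95% intervals of the 10 genes reached from -1.30 for *CAN1* to 1.06 for *BAP3*.

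Yap1 overexpression was compared with the same WT libraries to ask which transcripts rise with more Yap1. Of the 10 permeases, 0 passed the test of edgeR, 3 had an unadjusted p under 0.05 (*AGP1*, *BAP3* and *MUP3*), and DESeq2 called 1, *MUP3*. Over all 6781 genes tested, edgeR called 0.472% and 639 had an unadjusted p under 0.05, while DESeq2 called 93 genes. Without overlap, 4 permeases were higher with overexpression (*AGP1*, *BAP3*, *MUP3* and *LYP1*) and 0 lower, against 8.05% and 7.14% of all genes. *MUP3* had 21.1, 28.7 and 30 CPM with overexpression, against 11.8, 18.7 and 12.1 CPM in WT with vector. Replicate 2 was the highest WT library and came near the lowest overexpression library. The log2 fold change of *MUP3* was 0.89 ± 0.22 (95% interval 0.41 to 1.37, edgeR adjusted p = 0.196), and without WT replicate 2 it was 1.16 (adjusted p = 0.00209, against 0.00209 to 0.664 over the 6 fits with a library left out). *VMR1*, whose end lies 96 bp from that of *MUP3* on the other strand, had a change of -0.21 (adjusted p = 0.707).

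*AGP1* had 225, 329 and 233 CPM with overexpression, against 193, 181 and 207 CPM in WT with vector. The overexpression libraries were all higher, with replicate 2 the highest, and the change was 0.42 (95% interval 0.06 to 0.77, edgeR adjusted p = 0.449), or 0.24 without overexpression replicate 2. *FRM2*, which follows *AGP1* on the same strand after 732 bp, changed by 6.91 (adjusted p = 0.000264), and its part in the *AGP1* values was not tested. *BAP3*, the one permease gene with a Yap1 motif in the 500 bp searched, had 115, 96.4 and 106 CPM with overexpression. Its change against WT with vector was 0.54 (adjusted p = 0.449), beside 0.60 in the *yap1* mutant, and both comparisons share the WT libraries. Without WT replicate 2 these were 0.33 and 0.39. The other 7 genes had changes from -0.14 (*GNP1* and *MUP1*) to 0.29 (*BAP2*).

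The *yap1* mutant was also set directly against the overexpression strain, so that WT with vector was not a side of the contrast. The WT libraries were still part of the fit and entered its filter, scaling and estimate of spread. In that contrast 0 of the 10 permeases passed the test of edgeR, 2 had an unadjusted p under 0.05 (*AGP1* and *MUP3*), and DESeq2 called 0. Over all 6781 genes tested, edgeR called 0.973% and 535 had an unadjusted p under 0.05, while DESeq2 called 188 genes. Without overlap, 0 permeases were higher in the mutant and 5 lower (*AGP1*, *MUP1*, *MUP3*, *CAN1* and *LYP1*), against 8.86% and 9.94% of all genes. *MUP3* had 17.6, 15.6 and 18.4 CPM in the mutant, against the 21.1, 28.7 and 30 CPM with overexpression. The mutant libraries were all lower, with a log2 fold change of -0.62 ± 0.22 (edgeR adjusted p = 0.333). In a fit of only these 6 libraries *MUP3* passed the test at -0.64 (adjusted p = 0.0273, against 0.0273 to 1.00 over the 7 settings with all libraries kept). *AGP1* had 196, 192 and 203 CPM in the mutant, below all overexpression libraries, and its change was -0.39 (95% interval -0.75 to -0.04, adjusted p = 0.51), or -0.22 without overexpression replicate 2, beside -6.14 for *FRM2*. The 3 mutant libraries of *CAN1* had 56 to 95 counts, against 112 to 124 with overexpression, so the interval of its change, -0.49, ran from -1.20 to 0.22. The other 7 genes had changes from -0.27 (*MUP1*) to 0.07 (*BAP3*). Of 55 genes tested in the 5 related lists described above, edgeR called 0 in each of the 3 comparisons among plasmid strains. In the *yap1* mutant and with overexpression 5 of them had an unadjusted p under 0.05 and DESeq2 called 0. In the direct contrast 2 had such a p and DESeq2 called 1, *DIP5*. Of all 6781 genes, 690 had such a p in the *yap1* mutant, 639 with overexpression and 535 in the direct contrast.

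**Figure D4:**
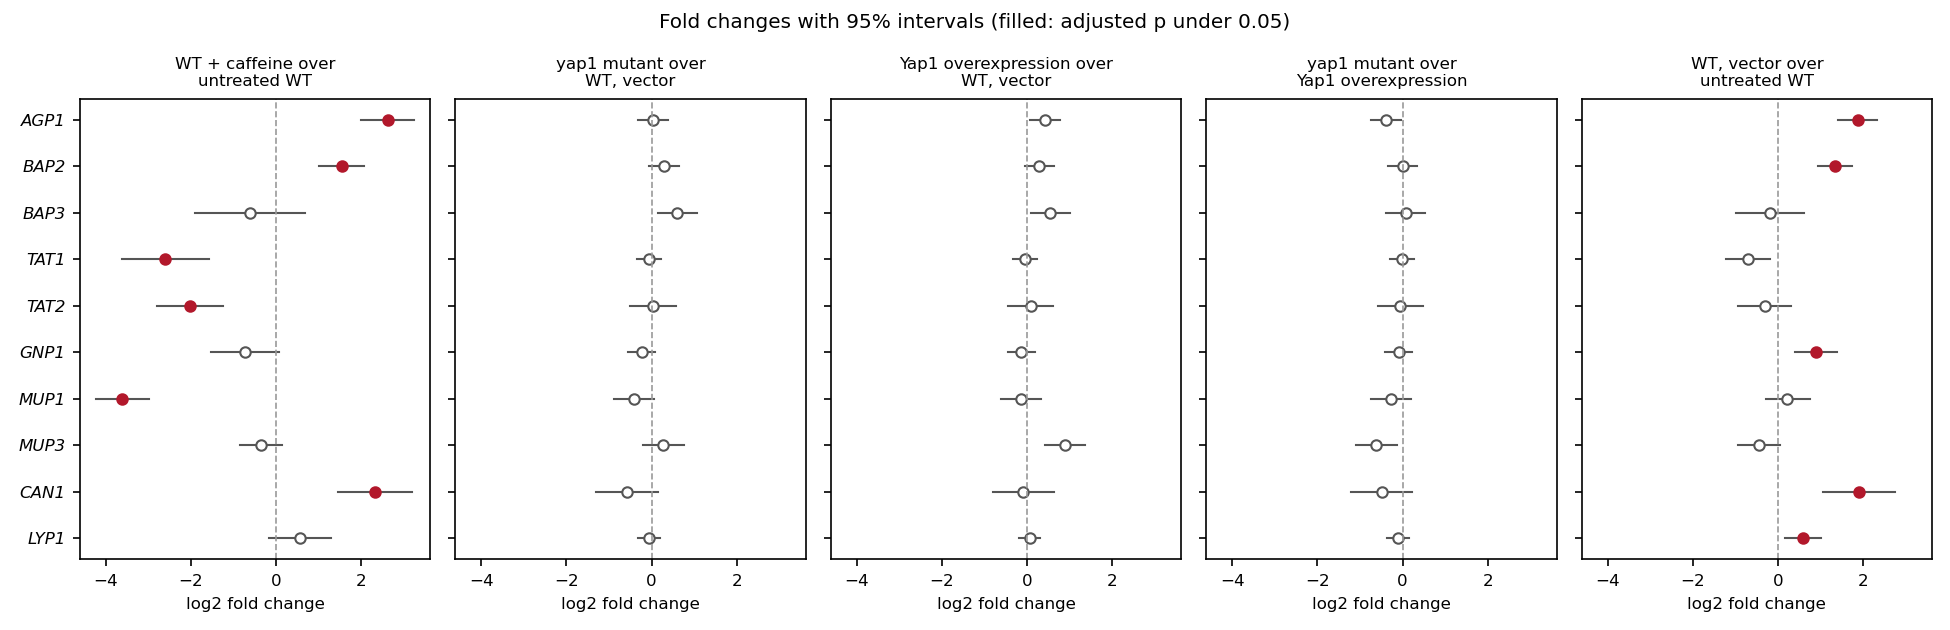
Log2 fold change (horizontal axis) with its 95% interval for each of the 10 permeases in the 5 comparisons, 1 panel per comparison, filled where the adjusted p was under 0.05. With caffeine 6 genes are filled and span -3.61 to 2.62, in the 3 comparisons of yap1 mutant, overexpression and WT with vector none is, and in WT with vector against untreated WT 5 are.

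WT with vector was set against untreated WT to place the levels of the 2 sets of libraries side by side. These sets differ in plasmid, in the selection that goes with it, and in library set, and may differ in medium, and these cannot be told apart. Of the 10 permeases, 5 were higher in WT with vector (*AGP1*, *CAN1*, *BAP2*, *GNP1* and *LYP1*) and 0 lower, against 11.2% higher and 11.9% lower of all 6920 genes. DESeq2 called the same 5 and also *TAT1* as lower, and without WT with vector replicate 2 edgeR called the same 5 and also *TAT1* (-0.75) and *MUP3* (-0.69) as lower. The groups did not overlap for 7 of the 10, against 43.7% of all genes. *AGP1* had 193, 181 and 207 CPM in WT with vector, against 50.7 and 55.3 CPM in untreated WT, a log2 fold change of 1.87 ± 0.21 (edgeR adjusted p = 7.95e-05). *BAP2* had 73.1, 70.0 and 87.5 CPM with vector, against 29.9 and 30.8 CPM, a change of 1.34 ± 0.19 (adjusted p = 0.000295). Both genes were far above the untreated libraries in all 3 vector libraries.

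*CAN1* had 8.70, 4.65 and 5.55 CPM in WT with vector, against 1.40 and 1.95 CPM in untreated WT (1.90 ± 0.39, edgeR adjusted p = 0.00394). *GNP1* had 363, 337 and 315 CPM with vector, against 223 and 142 CPM (0.89 ± 0.23, adjusted p = 0.0131), and ranked first of the 10 per kb in both groups. *LYP1* was the closest to the threshold of the genes called, at 0.58 ± 0.19 (adjusted p = 0.0459), with 132, 129 and 130 CPM with vector and 93.2 and 81.0 CPM untreated. *TAT1* had 37.0, 42.0 and 39.3 CPM with vector, against 61.1 and 67.4 CPM, and its change of -0.70 ± 0.24 did not pass (adjusted p = 0.052). The *TAT1* groups did not overlap, with the vector libraries lower. The other 4 genes, which did not pass the test, had changes of -0.44 (*MUP3*), -0.31 (*TAT2*), -0.19 (*BAP3*) and 0.22 (*MUP1*).

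This comparison rested on the scaling. The share of ribosomal RNA genes was 62.3% to 75% in WT with vector, against 14.7% and 18.4% in untreated WT. Scaling by total counts alone moved the median of all genes by -0.96 and left 1 permease higher (*AGP1*, 0.93) and 5 lower, with calls over all genes at 140 higher and 3498 lower in place of 777 and 821. Upper-quartile scaling gave 931 higher and 580 lower over all genes and kept the 5 permeases, and a fit of only these 5 libraries called 2, *AGP1* and *BAP2*.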

How the data were processed

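Per the labels, 3′ mRNA libraries were made with the QuantSeq kit. The authors aligned reads with Bowtie2 to sacCer3 and counted unique and multiple alignments per gene with Bedtools. Their versions, the gene annotation and the use of strand are not given in the sources used here. The deposited values are raw read counts per gene, 1 list per library, not normalized. One deposited table of mouse genes belongs to another study and was not used. Lists were joined by row, because gene names follow different versions: 6956 names were identical, and of 169 renamed rows 100 were matched by RefSeq synonyms and 69 by position only. No permease is among the renamed rows.

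Counts were tested with the robust quasi-likelihood test of edgeR 4.0.16 (R 4.3.3) after filterByExpr and TMM normalization, with Benjamini-Hochberg adjustment over all genes tested and a threshold of 0.05. The 4 libraries without plasmid formed 1 fit, the 9 plasmid libraries another, and the comparison of WT with vector and untreated WT used all 13. The biological coefficient of variation was 25.1%, 25.8% and 25.8%. Standard errors were obtained from the log2 fold change and the F statistic, as its absolute value over the root of F. The scripts were tested on simulated data. Replicates of a group differed by more than sampling noise. No stretch of 75 bases, the read length, in a permease coding sequence or the 300 bases after it occurred elsewhere in the genome, the longest runs tested being shared by *AGP1* and *GNP1* (40 bases), *LYP1* and *ALP1* (40) and *TAT2* and tRNA genes (50).

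The permeases and the gene lists were chosen with earlier results of these data known, and all 10 permeases were reported. From each list, up to 3 genes per direction with the largest change were named among those called with a mean of at least 10 CPM. The vacuolar list holds 13 genes with a row. Alternatives were DESeq2 1.42.0, scaling by library size only, upper-quartile scaling, no filter on low counts, leaving out rRNA genes, a replicate block, only the libraries compared, each library left out, and a promoter window of 250 bp. Genes with 0 counts in all libraries of a fit were never tested. Intervals cover the spread between libraries, and limits from a count of 0 cover counting error only. Figures were drawn with matplotlib 3.10.9.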

Additional observations from a re-analysis of the deposited data

How the results depend on the processing

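The 6 permeases called with caffeine kept their call and direction in all 10 alternative fits. Leaving out a library gave 6 to 7 calls there (1999 to 2454 over all genes), and *BAP3* ran from -1.70 to 0.00. Each such fit left 1 library in a group, assumed to vary like the others. Scaling by library size alone turned *MUP3* to 0.02 with caffeine. In the *yap1* mutant it turned *TAT1* to 0.29, *GNP1* to 0.15, *MUP1* to 0.04 and *LYP1* to 0.31, with the median of all genes moved by 0.36. With overexpression it turned *TAT1* to 0.38, *GNP1* to 0.32, *MUP1* to 0.40 and *CAN1* to 0.44, with the median moved by 0.45, and called 1 permease (*MUP3*), as did DESeq2. In the direct contrast *BAP2* and *BAP3* came to -0.09 and -0.03, and in WT with vector against untreated WT *GNP1*, *MUP1* and *LYP1* came to -0.04, -0.81 and -0.35. In the direct contrast, where *BAP2* was at 0.00, it was -0.02 with upper-quartile scaling, without rRNA genes and with only the libraries compared, and 0 with DESeq2.

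With a library left out, permeases called ran from 0 to 1 in the *yap1* mutant, 0 to 1 with overexpression and 3 to 7 in WT with vector, where 3 were called without either untreated library, 4 without vector replicate 1 or 3, and 7 without vector replicate 2. Fits of only the libraries compared called 1 permease in the direct contrast and 2 in WT with vector. Log2 fold changes that crossed 0 were *AGP1* (0.00 to 0.08), *TAT1* (-0.10 to 0.00) and *TAT2* (-0.22 to 0.19) in the *yap1* mutant; *MUP1* (-0.36 to 0.12), *CAN1* (-0.24 to 0.23), *TAT1* (-0.10 to 0.03) and *TAT2* (-0.16 to 0.26) with overexpression; *TAT1* (-0.08 to 0.04), *BAP2* (-0.13 to 0.12), *BAP3* (-0.01 to 0.12) and *TAT2* (-0.19 to 0.08) in the direct contrast; and *MUP1* (-0.02 to 0.47) and *BAP3* (-0.39 to 0.03) in WT with vector. The cause of these changes was not tested.

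Replicate numbers were not shown to pair the libraries. Same-numbered libraries deviated together with and without caffeine (r = 0.41), but not among the plasmid groups (r from -0.25 to 0.18). With only 2 libraries in each caffeine group, deviations from the group mean mirror each other. Both pairs then give the same r by construction, so it is a single value. With the replicate number as a block, edgeR called 7 permeases with caffeine (*GNP1* added, at -0.71) and 3869 genes in all, in place of 6 and 3094, 0 permeases in each of the 3 plasmid comparisons, with *BAP2* at 0 in the direct contrast, and 4 in WT with vector (without *LYP1*, at 0.60). Calls over all genes in the *yap1* mutant, 5, were 287 by library size, 131 by DESeq2, 1 with the block, 0 with only the libraries compared and 1 to 100 with a library left out, with 100 without WT replicate 2. With overexpression, 32 calls became 267, 93, 26, 21 and 21 to 112 in the same order, and in the direct contrast 66 became 40, 188, 41, 328 and 27 to 33. In WT with vector, 1598 calls became 3638 by library size, 338 with only the libraries compared and 925 to 1927 with a library left out. In a promoter window of 250 bp, GATAAG was found for 1 permease, TGACTC for 3 and CACGTG for 0. Small counts limit *CAN1* most, with 31 to 280 counts per library.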

Other observations

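The related gene lists were also read in WT with vector against untreated WT, where plasmid, selection, medium and library set cannot be told apart. Of the 9 other plasma membrane permeases, 5 were higher and 1 lower in WT with vector, against 11.2% and 11.9% of all genes, with a median log2 fold change of 1.1. *DIP5* (1.75 ± 0.25, edgeR adjusted p = 0.000356), *GAP1* (1.71 ± 0.49, adjusted p = 0.0273) and *SAM3*, the S-adenosylmethionine permease (1.1 ± 0.25, adjusted p = 0.00641), were among those that were higher. *MMP1*, the S-methylmethionine permease, was the one that was lower (-1.58 ± 0.33, adjusted p = 0.00421), and it was named after its values were seen. Of 13 sensing genes, *SSY5*, the protease of the sensor (1.18 ± 0.21), and *STP1* (0.67 ± 0.21) were higher, and *PTR2*, a peptide transporter that the same sensor induces, was lower (-1.29 ± 0.41, adjusted p = 0.037). Of 13 traffic genes, *ROG3* (1.05 ± 0.28), *ALY2* (0.95 ± 0.24) and *NPR1* (0.48 ± 0.15) were higher and *SHR3* was lower (-0.80 ± 0.22, adjusted p = 0.0183). Among 7 eisosome genes 0 were higher and 1, *SUR7*, was lower (-1.38 ± 0.45, adjusted p = 0.0481). Of 13 vacuolar transporters 2 were higher, *AVT3* (1.31 ± 0.24) and *RTC2* (2.58 ± 0.47, named after its values were seen), and 0 were lower.

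Per kb of coding length, *GNP1* had the highest mean level of the 10 permeases in the *yap1* mutant (145 CPM per kb), the overexpression strain (156) and WT with vector (170). *CAN1* had the lowest, at 2.37, 3.36 and 3.55 CPM per kb. *AGP1* stood next to *GNP1* in these 3 groups, at 104, 138 and 102 CPM per kb. Levels per length are approximate here too, but *GNP1*, *AGP1* and *CAN1* held the same places in mean CPM not divided by length. The summed level of the 10 genes was 961 to 997 CPM in the *yap1* mutant and 1070 to 1180 CPM in the overexpression strain, against 913 to 1070 CPM in WT with vector.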
